A study of Mus musculus with 6 samples.

Results

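The 28 genes described here make cholesterol and fatty acids or control that synthesis, and they were followed in cultured neurons of WT and Tlr7-/- mice. They were chosen by name from the deposited gene table, which lists 25814 genes, and all 28 were found and passed the filter on low counts. The WT group was 3 libraries of mixed primary neurons from cortex and hippocampus, wild type on the C57BL/6 background, collected at day 18 in vitro. The Tlr7-/- group was 3 libraries of the same kind of culture, background and day from mice that lack Tlr7, which senses single-stranded RNA in endosomes. The labels name no other allele or agent. Whether each replicate is its own culture or animal is not said, so a p-value reflects no more than the spread among these libraries, which may be technical.

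Cholesterol is built from acetyl-CoA. Acat2 and Hmgcs1 make the precursor of mevalonate, the kinases Mvk and Pmvk, the decarboxylase Mvd, the isomerase Idi1 and the synthase Fdps carry mevalonate to farnesyl diphosphate, and Fdft1, Sqle and Lss turn farnesyl diphosphate into lanosterol. Cyp51, Tm7sf2, Msmo1, Nsdhl, Hsd17b7, Ebp, Sc5d and Dhcr7 then reshape lanosterol into cholesterol. When sterols in the endoplasmic reticulum run low, Scap escorts the SREBP proteins, encoded by Srebf1 and Srebf2, to the Golgi, where they are cut and released to switch on these genes; Insig1 and Insig2 hold Scap back when sterols are plentiful. Stard4 moves cholesterol between membranes. Acaca and Fasn build fatty acids, and the desaturases Scd1 and Scd2 put a double bond in them. In brain the blood supplies little cholesterol, so neurons and glia make their own, and astrocytes and myelinating oligodendrocytes make much of it.

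Total counts were 23272450 to 25696625 per library, and the lowest count of any of the 28 genes in any library was 355. Tlr7 had 4, 8 and 4 counts in the WT libraries and 3, 5 and 5 in the Tlr7-/- libraries, so its level does not check the labels. Library names in the labels have 2 styles: Tlr7-/- replicate 1 is named like the WT libraries, and replicates 2 and 3 are named in another way. Replicates 2 and 3 stood apart on the first principal component of all genes, with scores of 46.3 and 44.6 against -29.0 to -15.6 in the other 4 libraries. The rank correlation of a gene's deviation from its mean with its GC content was -0.545 and -0.460 in replicates 2 and 3 and 0.306 to 0.513 in the others, and the share of counts from the mitochondrial genome was 4.4% and 4.19% against 2.60% to 3.14%. Main results are therefore given for all 6 libraries, for replicate 1 and for replicates 2 and 3, and calls in replicates 2 and 3 also after a correction that takes out, per library, the dependence on GC content and transcript length. Naming style, GC trend and whatever else sets replicates 2 and 3 apart cannot be told apart from each other.

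All 28 genes were expressed in every library. In TPM, a unit that allows for gene length, Scd2 was the highest of the 28 in each library, at 1601 to 2221 TPM. It alone took 38.6% to 41% of the summed CPM of the 28 (counts scaled to library size as adjusted by TMM). Hmgcs1 followed at 582 to 813 TPM and Scd1 at 328 to 598 TPM. The lowest were Hsd17b7, at 19.3 to 31.6 TPM, Ebp, at 22.9 to 36.8 TPM, and Insig2, at 27.0 to 35.9 TPM. The median of the 28 was 93.4, 96.3 and 101 TPM in WT replicates 1 to 3, against 86.0, 103 and 109 TPM in Tlr7-/- replicates 1 to 3. Part of this lies in the unit, because TPM stood higher relative to CPM in replicates 2 and 3. Acat2 had 124 CPM and 142 TPM in WT replicate 1, and 136 CPM and 171 TPM in Tlr7-/- replicate 2. In log2 CPM the median deviation of the 28 from the WT mean was -0.192, 0.0334 and 0.195 in Tlr7-/- replicates 1 to 3. Levels of Fdps and Idi1 were uncertain. Mean CPM in the gene table was 11.3-fold that in the authors' deposited edgeR table for Fdps and 9.15-fold for Idi1, whereas for the other 26 genes this ratio was 0.772 to 1.96, highest for Tm7sf2. How reads shared with near-identical copies or overlapping genes were counted is not given in the sources used here. Another counted gene overlapped 7 of the 28, on the opposite strand for 5 (Mvd, Fdft1, Cyp51, Srebf1 and Acaca); the kit keeps strand, but the strand setting of the counting was not given.

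**Figure D1:**
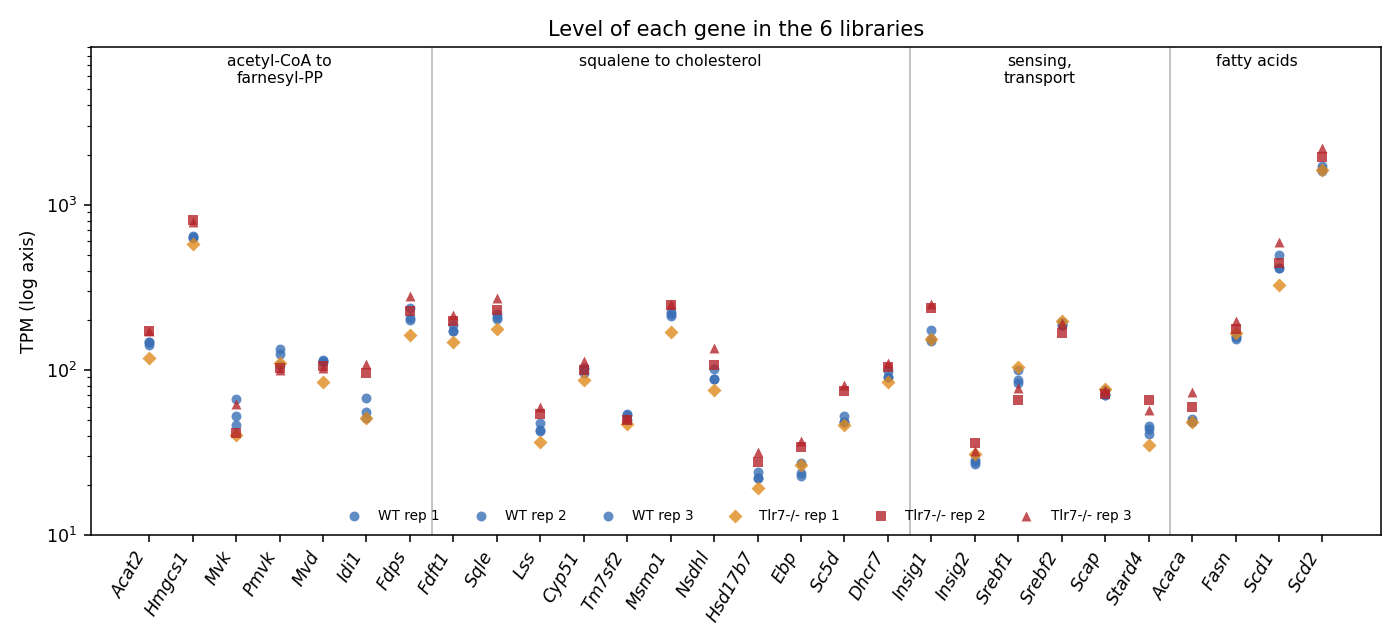
Level of each of the 28 genes in TPM, on a log axis, by role; each point is a library (blue circles WT, orange diamonds Tlr7-/- replicate 1, red squares and triangles Tlr7-/- replicates 2 and 3). Levels ran from 19.3 TPM for Hsd17b7 in Tlr7-/- replicate 1 to 2221 TPM for Scd2 in Tlr7-/- replicate 3.

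Sequence before the start site is shown for 3 of the genes called higher in Tlr7-/- replicates 2 and 3 before correction. Of these, Hmgcs1 had a log2 fold change of -0.0027 after correction. SREBP proteins can act in such stretches together with partner factors. Whether their action differed between these libraries was not tested. The stretches come from RefSeq on build GRCm38.p6, read 5′ to 3′ on the strand of the gene, and end before the gene as both the gene table and RefSeq place it. Capitals mark the letters of 4 motifs on either strand: TCACNCCAC (core of a sterol regulatory element, where N is any base), CACGTG (E-box), CCAAT (NF-Y box) and GGGCGG (GC box). Hmgcs1 (chr13:119690201-119690350, plus strand) held 1 sterol element, 1 NF-Y box and 2 GC boxes. Sc5d (chr9:42264301-42264450, minus strand) held 1 E-box and 1 NF-Y box. Insig1 (chr5:28071213-28071362, plus strand) held 1 E-box and 2 GC boxes.
Hmgcs1: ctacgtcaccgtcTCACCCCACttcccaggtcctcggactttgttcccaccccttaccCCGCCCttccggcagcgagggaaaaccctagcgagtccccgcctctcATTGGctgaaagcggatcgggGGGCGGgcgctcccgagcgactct
Sc5d: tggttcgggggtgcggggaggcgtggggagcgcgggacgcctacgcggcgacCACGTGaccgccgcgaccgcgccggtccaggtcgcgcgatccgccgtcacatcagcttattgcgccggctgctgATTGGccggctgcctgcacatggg
Insig1: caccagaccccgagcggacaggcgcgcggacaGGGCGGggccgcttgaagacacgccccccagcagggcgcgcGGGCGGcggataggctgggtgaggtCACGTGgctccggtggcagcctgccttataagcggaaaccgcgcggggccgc
RefSeq windows of 250 bases before to 50 bases after the start were given for 22 of the 28 genes. A CCAAT was found in 19 of these 22, against 41.1% of all 27025 genes with a window, and a GC box in 19 of 22, against 38.2%. An E-box was found in 5 of 22, against 8.09% of all genes, and the sterol element in 1 of 22, Hmgcs1, against 1.44%. These shares of all genes are not like for like: the 27025 genes were not limited to genes that passed the filter, whereas all 28 did. A match describes the letters in this window and is not a binding site, and a gene without a match may hold one elsewhere.

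With all 6 libraries, the question was whether loss of Tlr7 went with a change in these genes. None of the 28 passed the test: edgeR's quasi-likelihood test called 0 of 28, and over all 13947 genes tested it also called 0 (0%). The median log2 fold change of the 28 (Tlr7-/- over WT) was -0.0033, against 0.0014 for all genes tested, with 14 above and 14 below 0, and it ran from -0.33 for Pmvk to 0.45 for Idi1. At an unadjusted edgeR p under 0.05 there were 0 higher and 3 lower of the 28 (Mvd, Pmvk and Tm7sf2), while 15.6% of all genes tested were higher and 12.6% lower. DESeq2's Wald test called 1 of the 28, Mvd, which was lower (log2 fold change -0.32 ± 0.10 SE, DESeq2 adjusted p = 0.0183), against 7.94% of genes called higher and 4.86% called lower. Both limma-voom and edgeR's exact test called 0 of the 28. Over all 13947 genes tested limma-voom called 0 and the exact test 1028. Of the 28 genes in the authors' deposited table, 0 had a false discovery rate under 0.05, against 465 of 27420 genes (1.7%). In CPM, all 3 Tlr7-/- libraries lay above all 3 WT libraries for 1 of the 28 (Insig2) and below them for 2 (Mvd and Tm7sf2), against 16.5% and 16.2% of genes tested.

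Genes of the 28 were called once the Tlr7-/- group was divided by library name. In replicates 2 and 3 the edgeR test in a fit with 3 groups called 10 of the 28 higher and 5 lower than WT, against 24.4% of all genes called higher and 25.2% called lower. The 10 higher were Hmgcs1, Idi1, Lss, Hsd17b7, Ebp, Sc5d, Insig1, Stard4, Acaca and Scd2, and the 5 lower were Pmvk, Mvd, Tm7sf2, Srebf1 and Srebf2. The median log2 fold change of the 28 was 0.12 (-0.0020 for all genes). In replicate 1 the median was -0.20 (-0.0041 for all genes), with 22 of 28 below 0. There the test called 0 higher, against 0.889% of all genes, and 2 lower, Mvd and Msmo1, against 0.545%. This fit takes the spread from all libraries and assumes that replicate 1 varies like the others. The calls in replicate 1 fell to 0 without WT replicate 1 and to 0 without WT replicate 2, while calls over all genes fell from 200 to 34 and 18. Those in replicates 2 and 3 fell from 15 to 10 without WT replicate 1 and to 8 without WT replicate 2, and over all genes from 6915 to 5821 and 5305. Without Tlr7-/- replicate 3 the median log2 fold change of the 28 there was 0.033.

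Tested directly against each other, replicates 2 and 3 were higher than replicate 1 for 14 of the 28 and lower for 1, Srebf1, by the same edgeR fit, against 15% of all genes called higher and 16.6% called lower. The median difference of the 28 was 0.36 on the log2 scale, against 0.0097 for all genes. After the correction for GC content and length 12 of the 28 were called higher, 10 of them among the 14, and 0 were called lower. Of all 13947 genes tested, 7.36% were then called higher and 1583 were called lower. The 14 were Acat2, Hmgcs1, Idi1, Fdps, Fdft1, Sqle, Lss, Msmo1, Nsdhl, Hsd17b7, Sc5d, Insig1, Stard4 and Acaca, and 11 of them are enzymes on the way from acetyl-CoA to cholesterol. This comparison and those with WT share libraries. The difference lay between libraries of 1 genotype.

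**Figure D2:**
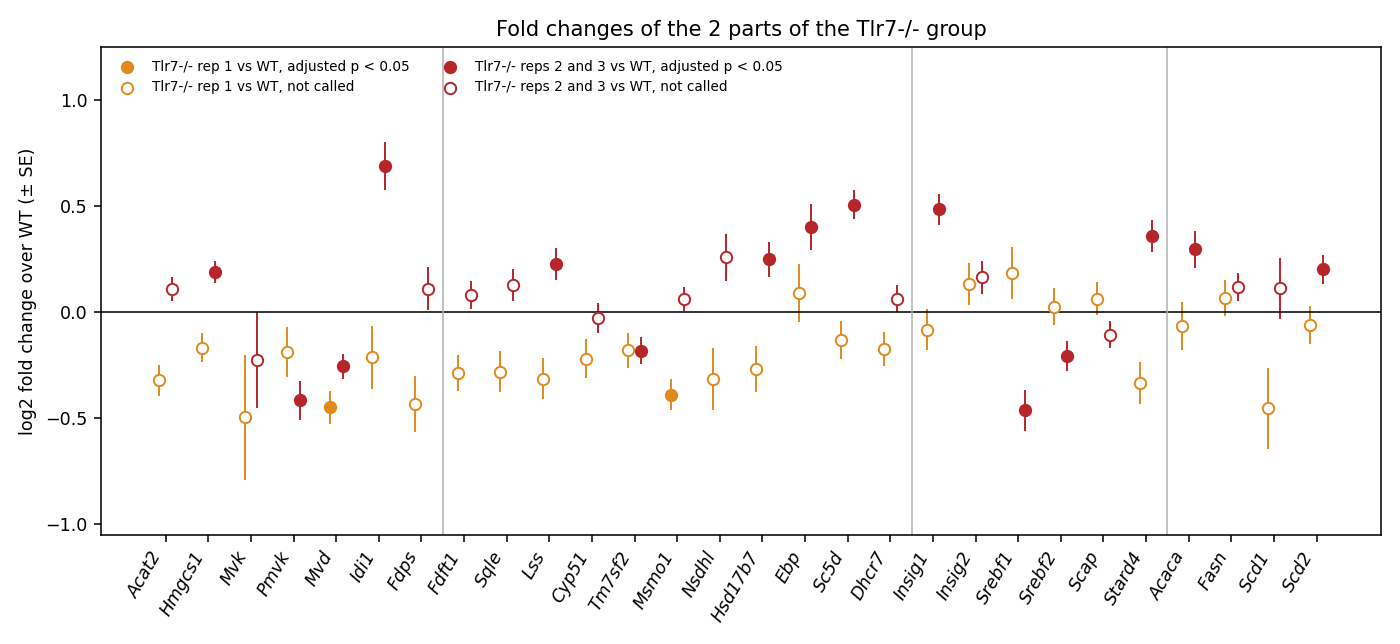
Log2 fold change over WT (± SE, 3-group edgeR fit) of the 28 genes in Tlr7-/- replicate 1 (orange) and in Tlr7-/- replicates 2 and 3 (red), by role; filled points passed an adjusted p of 0.05. Most orange points lie below 0 (22 of 28), and 20 of 28 red points lie above it.

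The 7 enzymes from acetyl-CoA to farnesyl diphosphate were lowest as a group in Tlr7-/- replicate 1. Their summed level was 97.5%, 99.9% and 102.5% of the WT mean in the WT libraries and 85.1%, 109% and 112% in Tlr7-/- replicates 1 to 3. Hmgcs1 made up most of this sum, with a mean of 820 CPM in WT, where the sum was 1297 to 1364 CPM. In replicates 2 and 3 the log2 fold change was above 0 for 4 of the 7 and below 0 for Mvk, Pmvk and Mvd (-0.22, -0.42 and -0.26). In replicate 1 the log2 fold change was below 0 for 7 of 7, with 1 called lower (0.545% of all genes), and in replicates 2 and 3 the test called 2 higher and 2 lower, near the shares of all genes called (24.4% higher and 25.2% lower).

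Mvd, the decarboxylase that makes isopentenyl diphosphate (ENSMUSG00000006517, GRCm38 chromosome 8, 122433601 to 122443422, minus strand), had 72.6, 74.1 and 75.0 CPM in WT replicates 1 to 3, against 54.1, 62.0 and 61.8 CPM in Tlr7-/- replicates 1 to 3. All 3 Tlr7-/- libraries were below all 3 WT libraries, with means of 73.9 ± 1.18 and 59.3 ± 4.48 CPM (SD, n = 3 each). The log2 fold change was -0.32 ± 0.08 (SE; edgeR adjusted p = 0.116) with all 6 libraries, and Mvd fell by 0.45 in replicate 1 (log2 scale, -0.45 ± 0.08; edgeR adjusted p = 0.0328). In replicates 2 and 3 it was -0.26 ± 0.06 (edgeR adjusted p = 0.00664), but after correction for GC content and length it was 0.26 and called higher (edgeR adjusted p = 0.00929), so the direction of Mvd there depends on the correction. In replicate 1 it was -0.35 after correction (edgeR adjusted p = 0.0664).

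Pmvk, the kinase before Mvd (ENSMUSG00000027952, chromosome 3, 89454541 to 89469013, plus strand), had 81.0, 75.7 and 64.6 CPM in WT and 64.8, 55.6 and 55.0 CPM in Tlr7-/- replicates 1 to 3. Replicates 2 and 3 were below all other libraries, and replicate 1 lay within the WT range. The log2 fold change of replicates 2 and 3 was -0.42 ± 0.09 (edgeR adjusted p = 0.00526), and 0.06 after correction (edgeR adjusted p = 0.598). Mvk, the kinase before it (ENSMUSG00000041939, chromosome 5, 114444269 to 114460591, plus strand), had 32.5, 37.0 and 46.8 CPM in WT and 27.5, 26.4 and 40 CPM in Tlr7-/- replicates 1 to 3. The groups overlapped and the replicates of each spread widely, and no contrast called Mvk.

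Idi1, the isomerase that follows Mvd (ENSMUSG00000058258, chromosome 13, 8885501 to 8892451, plus strand), had 55.7, 60.2 and 72.7 CPM in WT and 54.2, 94.3 and 108 CPM in Tlr7-/- replicates 1 to 3. Replicates 2 and 3 lay above all other libraries, and replicate 1 was the lowest of the 6. Idi1 rose by 0.69 ± 0.11 on the log2 scale in replicates 2 and 3 (edgeR adjusted p = 0.0012), the largest fold change of the 28 in that contrast, and by 0.47 after correction (edgeR adjusted p = 0.0175). Hmgcs1, the synthase at the start of the mevalonate pathway whose upstream sequence is shown above, had 807, 823 and 829 CPM in WT and 730.4, 942 and 927 CPM in Tlr7-/- replicates 1 to 3. It rose by 0.19 ± 0.05 in replicates 2 and 3 (edgeR adjusted p = 0.0135), a difference that was 0.00 after correction (-0.0027). Acat2 and Fdps were not called against WT in either part of the group, and Fdps had -0.43 ± 0.13 in replicate 1 (edgeR adjusted p = 0.166). After correction Acat2 was called higher in replicates 2 and 3 (0.23, edgeR adjusted p = 0.0114).

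The 11 enzymes from squalene to cholesterol followed the same order of libraries. Their summed level was 97.5%, 99.6% and 103% of the WT mean in the WT libraries and 83.5%, 103% and 115% in Tlr7-/- replicates 1 to 3. In replicate 1, 10 of 11 had a log2 fold change below 0 (median -0.27) and 1 was called; in replicates 2 and 3, 9 of 11 were above 0 (median 0.13), with 4 called higher and 1 lower, against 24.4% and 25.2% of all genes.

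Sc5d, the desaturase near the end of the pathway (ENSMUSG00000032018, chromosome 9, 42251595 to 42264256, minus strand), had 82.1, 83.3 and 90.0 CPM in WT and 77.8, 115 and 127 CPM in Tlr7-/- replicates 1 to 3. Replicates 2 and 3 were above every other library and replicate 1 was below them all. Sc5d rose by 0.51 ± 0.07 in replicates 2 and 3 (edgeR adjusted p = 0.00033) and by 0.21 after correction (edgeR adjusted p = 0.0395). Ebp, the sterol isomerase before Sc5d (ENSMUSG00000031168, chromosome X, 8185329 to 8193512, minus strand), had 14, 16.6 and 14.4 CPM in WT and 16, 19.0 and 20.7 CPM in Tlr7-/- replicates 1 to 3. Replicate 1 lay within the WT range here, and replicates 2 and 3 above it. Ebp rose by 0.40 ± 0.11 in replicates 2 and 3 (edgeR adjusted p = 0.0126) and by 0.64 after correction (edgeR adjusted p = 0.00239).

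Tm7sf2, a sterol reductase acting after Cyp51 (ENSMUSG00000024799, chromosome 19, 6062821 to 6077197, minus strand), had 80.4, 79.7 and 74.2 CPM in WT and 69.0, 67.8 and 70.0 CPM in Tlr7-/- replicates 1 to 3. The groups did not overlap in CPM, with means of 78.1 ± 3.41 and 68.9 ± 1.10 CPM (SD, n = 3 each), but in TPM replicates 2 and 3 (50.03 and 50.98) lay within the WT range of 49.7 to 53.7. The log2 fold change was -0.18 ± 0.07 with all 6 libraries (edgeR adjusted p = 0.158), -0.18 ± 0.08 in replicate 1 (edgeR adjusted p = 0.34) and -0.18 ± 0.06 in replicates 2 and 3 (edgeR adjusted p = 0.0435), where it was -0.08 after correction (edgeR adjusted p = 0.361). The reads of Tm7sf2 may be shared with Vps51 and Gm28374, which overlap it on the same strand. Cyp51, the lanosterol demethylase (ENSMUSG00000001467, chromosome 5, 4081145 to 4104746, minus strand), had 132, 142 and 139 CPM in WT and 118, 126 and 144 CPM in Tlr7-/- replicates 1 to 3. Its groups overlapped, with replicate 1 lowest and replicate 3 highest, and no contrast called it.

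Msmo1, the methyl oxidase that follows these steps (ENSMUSG00000031604, chromosome 8, 64718139 to 64733792, minus strand), had 181, 187 and 176 CPM in WT and 139, 187 and 191 CPM in Tlr7-/- replicates 1 to 3. Replicate 1 was below the other 5 libraries, which overlapped. Msmo1 fell by 0.39 on the log2 scale in replicate 1 (-0.39 ± 0.07; edgeR adjusted p = 0.042), and had -0.36 after correction (edgeR adjusted p = 0.0557). Lss, which closes the sterol ring, had 73.8, 74.6 and 81.5 CPM in WT and 61.7, 84.4 and 94.9 CPM in Tlr7-/- replicates 1 to 3. Lss and Hsd17b7 rose in replicates 2 and 3, by 0.23 ± 0.07 (edgeR adjusted p = 0.0309) and 0.25 ± 0.08 (edgeR adjusted p = 0.0309), and lost the call after correction (-0.01 and 0.01). Fdft1, Sqle, Nsdhl and Dhcr7 were not called against WT in either part; in replicate 1 they had -0.29, -0.28, -0.32 and -0.17. Dhcr7 was called higher in replicates 2 and 3 after correction only (0.23, edgeR adjusted p = 0.0244).

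**Figure D3:**
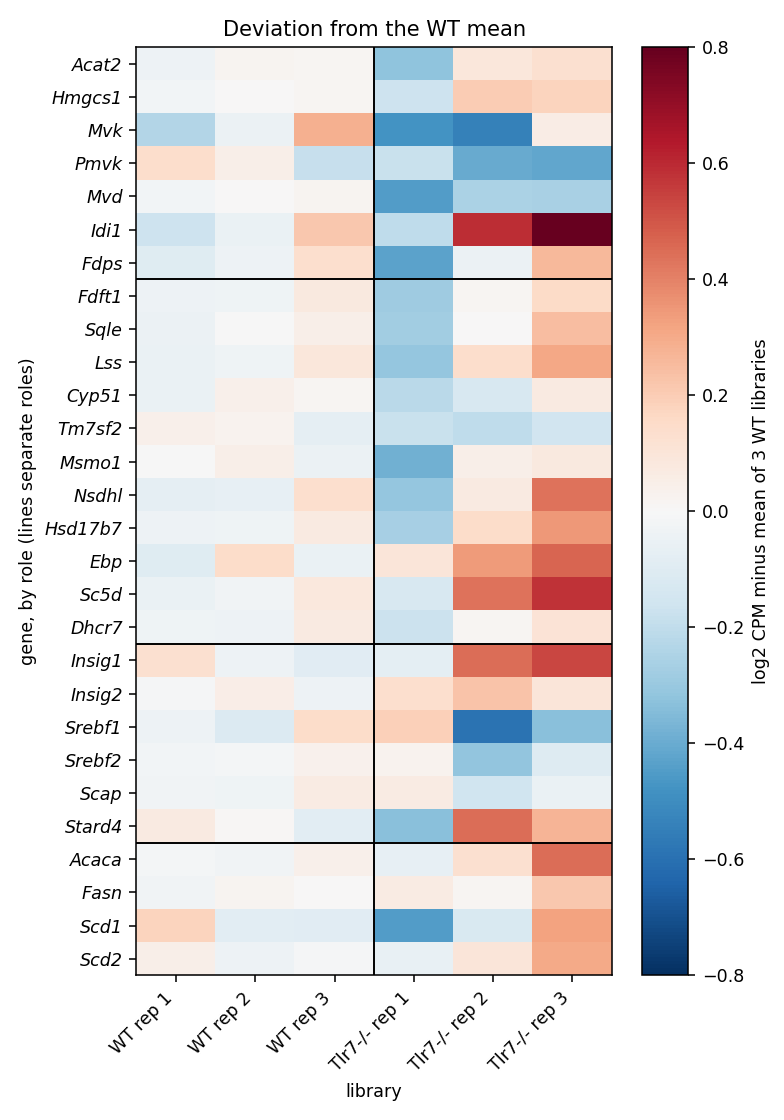
Log2 CPM of each of the 28 genes minus its mean over the 3 WT libraries, by library (columns) and role (rows, separated by lines). The Tlr7-/- replicate 1 column is blue for most enzymes, while Idi1, Sc5d and Insig1 are deep red in replicates 2 and 3 and Srebf1 is blue there.

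Of the 6 genes of sterol sensing and transport, the test called 2 higher (Insig1 and Stard4) and 2 lower (Srebf1 and Srebf2) in Tlr7-/- replicates 2 and 3, where 24.4% and 25.2% of all genes were called. After the correction for GC content and length, 2 were called higher (Insig1 and Scap) and 0 lower. In replicate 1 none of the 6 was called. The summed level of the 6 was 847 to 879 CPM in WT and 825 to 893 CPM in Tlr7-/- libraries.

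Insig1, which retains Scap in the endoplasmic reticulum and is itself a target of SREBP (ENSMUSG00000045294, chromosome 5, 28071363 to 28078662, plus strand), had 164, 146 and 141 CPM in WT and 142, 204 and 217 CPM in Tlr7-/- replicates 1 to 3. Replicate 1 lay within the WT range, and replicates 2 and 3 lay above it. Insig1 rose by 0.49 ± 0.07 in replicates 2 and 3 (edgeR adjusted p = 0.000604) and by 0.51 after correction (edgeR adjusted p = 0.000807), so its value there moved little with the correction. Insig2, its homologue (ENSMUSG00000003721, chromosome 1, 121304353 to 121332589, minus strand), had 29.1, 30.4 and 28.5 CPM in WT and 32.2, 34.4 and 31.4 CPM in Tlr7-/- replicates 1 to 3. All 3 Tlr7-/- libraries were above all 3 WT libraries, at 32.7 ± 1.53 against 29.4 ± 0.949 CPM (SD, n = 3 each). The log2 fold change of 0.15 ± 0.08 did not pass (edgeR adjusted p = 0.247), nor did 0.13 in replicate 1 or 0.17 in replicates 2 and 3.

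Srebf1, the SREBP gene tied most to fatty acid synthesis (ENSMUSG00000020538, chromosome 11, 60199089 to 60222581, minus strand), had 136, 129.8 and 155 CPM in WT and 159, 92.6 and 111 CPM in Tlr7-/- replicates 1 to 3. Replicate 1 was the highest of the 6 libraries and replicates 2 and 3 the lowest. Srebf1 fell by 0.46 in replicates 2 and 3 (-0.46 ± 0.10; edgeR adjusted p = 0.00454), and had -0.20 after correction (edgeR adjusted p = 0.127). Against replicate 1 it was lower by -0.65 ± 0.13 (edgeR adjusted p = 0.00648) and after correction by -0.41 (edgeR adjusted p = 0.0506). Srebf2, the SREBP gene tied most to cholesterol synthesis (ENSMUSG00000022463, chromosome 15, 82147181 to 82205379, plus strand), had 343, 345 and 357 CPM in WT and 355, 279.7 and 325 CPM in Tlr7-/- replicates 1 to 3. Replicates 2 and 3 were again the lowest in CPM, although in TPM replicate 3 (192) lay within the WT range of 186 to 194. Srebf2 fell by 0.20 in replicates 2 and 3 (-0.20 ± 0.07; edgeR adjusted p = 0.0364) and had -0.04 after correction (edgeR adjusted p = 0.643).

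Scap was not called before correction (-0.11 ± 0.06 in replicates 2 and 3), and after correction it was called higher there (0.22, edgeR adjusted p = 0.0204). Stard4 had 83.6, 80.1 and 74.8 CPM in WT and 63.1, 108 and 95.8 CPM in Tlr7-/- replicates 1 to 3, the lowest in replicate 1 and the highest in replicates 2 and 3. It rose by 0.36 ± 0.08 in replicates 2 and 3 (edgeR adjusted p = 0.00345), and had 0.08 after correction (edgeR adjusted p = 0.465).

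The 4 genes of fatty acid synthesis all had log2 fold changes above 0 in Tlr7-/- replicates 2 and 3, with 2 called higher (Acaca and Scd2; 24.4% of all genes), and 0 were called in replicate 1. After correction 0 of 4 were called in either part. Their summed level was 104%, 97.2% and 98.7% of the WT mean in the WT libraries and 93.4%, 104% and 123% in Tlr7-/- replicates 1 to 3, so replicate 3 was the highest by a wide margin. Scd2 made up most of this sum, with 3901 of 5749 CPM in replicate 3. Fasn did not share the lower sum of replicate 1, at 614 CPM against 573 to 596 CPM in WT.

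Acaca, the carboxylase that makes malonyl-CoA (ENSMUSG00000020532, chromosome 11, 84129672 to 84401651, plus strand), had 173, 172 and 179.9 CPM in WT and 167, 191 and 239 CPM in Tlr7-/- replicates 1 to 3. It rose by 0.30 ± 0.09 in replicates 2 and 3 (edgeR adjusted p = 0.0204), with -0.03 after correction. Fasn, the fatty acid synthase (ENSMUSG00000025153, chromosome 11, 120805846 to 120824547, minus strand), had 573, 596 and 588 CPM in WT and 614, 593 and 679 CPM in Tlr7-/- replicates 1 to 3. No contrast called Fasn, and replicate 2 lay within the WT range.

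Scd2, the main desaturase of these cultures by level (ENSMUSG00000025203, chromosome 19, 44293676 to 44306864, plus strand), had 3269.8, 3072 and 3142 CPM in WT and 3033, 3373 and 3901 CPM in Tlr7-/- replicates 1 to 3. It rose by 0.20 ± 0.07 in replicates 2 and 3 (edgeR adjusted p = 0.0367), with 0.08 after correction (edgeR adjusted p = 0.334). Scd1, its neighbour (ENSMUSG00000037071, chromosome 19, 44394451 to 44407709, minus strand), had 843, 702 and 698 CPM in WT and 546, 686 and 931 CPM in Tlr7-/- replicates 1 to 3. The Tlr7-/- libraries lay on both sides of WT, with replicate 1 lowest and replicate 3 highest, and no contrast called Scd1 (-0.45 ± 0.19 in replicate 1, edgeR adjusted p = 0.331).

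Replicate 1 of the Tlr7-/- group was the lowest of the 6 libraries for 18 of the 28 genes, against 15.4% of all genes tested, a pattern looked for after the values were seen. Among the 18 enzymes from acetyl-CoA to cholesterol it was the lowest for 14, and 17 had a log2 fold change below 0 in it, 17 also after the correction (median -0.27 before it). Replicates 2 and 3 were both above the other 4 libraries for 12 of the 28 and both below them for 4 (Pmvk, Srebf1, Srebf2 and Scap), against 29.9% and 30.4% of all genes.

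Markers of the other cells in such cultures moved with some of these values. The 10 astrocyte markers, all in the table and none at 0, summed to 4978 to 5213 CPM in WT, 4213 CPM in Tlr7-/- replicate 1, and 5244 and 4888 CPM in replicates 2 and 3. As shares of the WT mean these were 82.9%, 103% and 96.1%, beside 85.1%, 109% and 112% for the sum of the first 7 enzymes, most of which is Hmgcs1. In replicate 1, 8 of the 10 astrocyte markers were below WT, and Sox9 (0.32) and Slc1a3 (0.04) were above it. There 1 was called, Gfap, the astrocyte filament protein (log2 fold change -1.07 ± 0.11, edgeR adjusted p = 0.0112), against 0.545% of all genes called lower. Gfap had a mean of 1148 CPM in WT and 548 CPM in replicate 1, so it made up much of the fall in the sum. In replicates 2 and 3 the astrocyte markers split, with 2 called higher and 3 lower (24.4% and 25.2% of all genes). The 13 oligodendrocyte lineage markers summed to 1474 to 1524 CPM in WT and 1066, 763 and 893 CPM in Tlr7-/- replicates 1 to 3. Of 12 tested, 12 had a log2 fold change below 0 in each part. In replicates 2 and 3 the test called 9 of the 12 lower and 0 higher, against 25.2% and 24.4% of all genes. After the correction for GC content and length 9 were called lower there, against 17.1% of all genes. The 10 neuron markers summed to 98.7% to 103% of the WT mean in the Tlr7-/- libraries, and none of them was at 0. Single neuron markers moved in both directions under this sum. In replicates 2 and 3, 5 were called higher and 4 lower (24.4% and 25.2% of all genes), from -0.98 for Tubb3 to 0.57 for Map2. In replicate 1 their log2 fold changes ran from -0.40 to 0.37. Microglial markers summed to 2.01 to 11.4 CPM and endothelial and mural markers to 15.1 to 20.5 CPM over all libraries. In RNA from a whole culture, fewer cells of a type and less RNA per cell cannot be told apart, and the part of these cells in the values of the 28 genes was not tested.

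**Figure D4:**
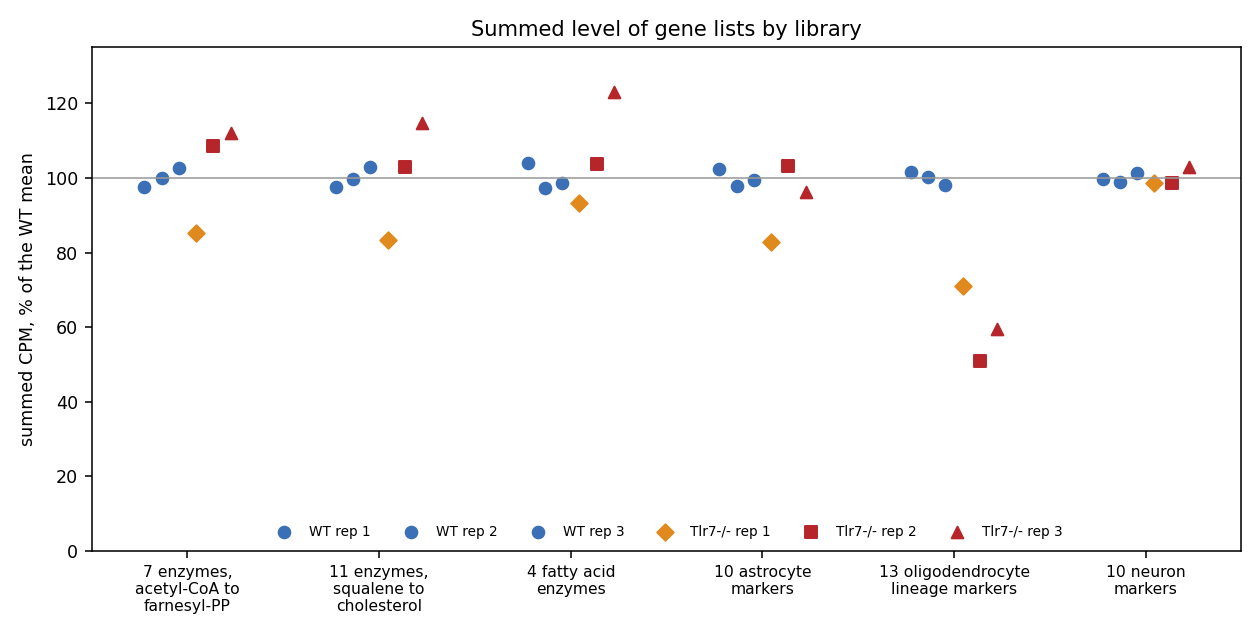
Summed CPM of 6 gene lists in each library, as a percentage of the mean of the 3 WT libraries (grey line). Both groups of cholesterol enzymes and the astrocyte markers are lowest in Tlr7-/- replicate 1 (82.9% to 85.1%), as are the fatty acid enzymes (93.4%). Single genes weigh heavily in some sums. Gfap made up much of the fall of the astrocyte markers, and Scd2 is most of the fatty acid sum. The sum of the neuron markers stays within 98.7% to 103%, although single markers moved in both directions. Oligodendrocyte lineage markers are at 50.8% to 71.0% in the Tlr7-/- libraries.

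Fold changes of the 28 genes in Tlr7-/- replicates 2 and 3 followed GC content. The rank correlation across the 28 genes between log2 fold change over WT and the GC content of the longest transcript was -0.72 in replicates 2 and 3, 0.20 in replicate 1 and -0.60 with all 6 libraries; over all genes tested it was -0.54, -0.13 and -0.51. These genes share libraries and are not independent replicates. Idi1 (41.9% GC) and Sc5d (42.9% GC) had the largest fold changes, and Srebf1 (58.4% GC) and Pmvk (57.0% GC) the lowest. With the correction for GC content and length, 8 of the 28 were called higher in replicates 2 and 3 and 0 lower, against 15.5% and 17.1% of all genes tested. Idi1, Ebp, Sc5d and Insig1 were called higher both ways. The other 4, Acat2, Mvd, Dhcr7 and Scap, were called higher only after the correction, and 6 of the 10 genes called higher before it and all 5 called lower lost that call.

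**Figure D5:**
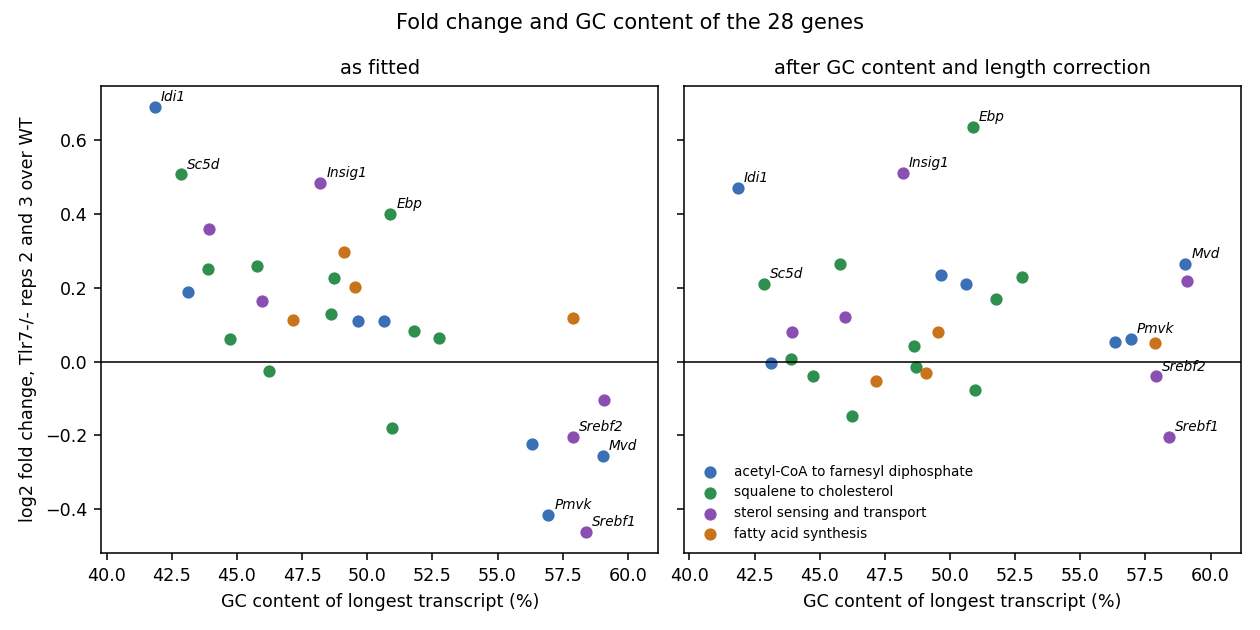
Log2 fold change of Tlr7-/- replicates 2 and 3 over WT against the GC content of the longest transcript for the 28 genes, as fitted (left) and after the GC content and length correction (right), coloured by role. On the left genes of low GC content (Idi1, Sc5d) lie above 0 and genes of high GC content (Srebf1, Pmvk) below it; on the right Idi1, Ebp, Sc5d and Insig1 remain above 0.

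Other genes of the same pathways moved in both directions. With all 6 libraries 0 genes of these lists were called. The counts in replicates 2 and 3 that follow stand against 24.4% of all genes called higher and 25.2% called lower there, and those in replicate 1 against 0.889% and 0.545%. Of 10 tested genes of other sterol synthesis and uptake, 3 were called higher and 2 lower in replicates 2 and 3, and 0 higher and 1 lower in replicate 1. The last was Tmem97, a sterol-binding membrane protein of the endoplasmic reticulum, named after its value was seen (-0.64 ± 0.11, edgeR adjusted p = 0.0341; after correction edgeR adjusted p = 0.0554). The genes of this list with the smallest p with all 6 libraries were Lrp1, Acat1 and Lbr. Lrp1, an apolipoprotein E receptor, had 0.34 with all 6 libraries and rose by 0.42 in replicates 2 and 3 (edgeR adjusted p = 0.000606; 0.24 after correction, edgeR adjusted p = 0.00833). Acat1, the mitochondrial thiolase, had -0.25 with all 6 and -0.31 in replicates 2 and 3 (edgeR adjusted p = 0.00124; -0.42 after correction). Lbr, a sterol reductase of the nuclear envelope, had -0.29 with all 6 and -0.28 in replicates 2 and 3 (edgeR adjusted p = 0.0533), and was called lower there after correction (-0.44, edgeR adjusted p = 0.0124). In replicates 2 and 3 alone the smallest p of the list was that of Vldlr, a lipoprotein receptor, named after its value was seen (0.48, edgeR adjusted p = 0.000185; 0.04 after correction, edgeR adjusted p = 0.627).

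Of 10 genes of SREBP processing and sterol-regulated degradation, 4 were called higher and 0 lower in replicates 2 and 3, and 0 in replicate 1. Mbtps2, the protease that makes the second cut in SREBP, had 0.56 with all 6 libraries and rose by 0.74 ± 0.09 in replicates 2 and 3 (edgeR adjusted p = 0.0002; 0.27 after correction). Rnf139, a sterol-sensing ubiquitin ligase, rose by 0.62 there (0.28 after correction, edgeR adjusted p = 0.0335). Erlin2, a membrane protein of the endoplasmic reticulum, rose by 0.32 and lost the call after correction (0.12, edgeR adjusted p = 0.165). Of 11 genes on branches of the mevalonate pathway, 3 were called higher and 3 lower in replicates 2 and 3. They include Ggps1 and Nus1, which make longer isoprenoids and rose by 0.48 and 0.34, and Fnta, a farnesyl transferase subunit, which fell by 0.21 (-0.21). All 3 lost the call after correction, with 0.07, 0.03 and -0.09 (edgeR adjusted p = 0.479, 0.76 and 0.313). After correction 1 other gene of this list was called higher, Coq2, and 1 lower, Rabggtb, both named after their values were seen.

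Of 13 genes of cholesterol export, turnover and the sterol receptor LXR, 4 were called higher and 4 lower in replicates 2 and 3, and 1 higher in replicate 1. That gene was Abca1, the pump that loads cholesterol onto apolipoproteins. It had 155, 149 and 153 CPM in WT and 196, 239 and 249 CPM in Tlr7-/- replicates 1 to 3, so that all 3 Tlr7-/- libraries lay above all 3 WT libraries. Abca1 rose by 0.36 ± 0.07 in replicate 1 (edgeR adjusted p = 0.042; 0.24 after correction, edgeR adjusted p = 0.11) and by 0.68 ± 0.06 in replicates 2 and 3 (edgeR adjusted p = 2.53e-05; 0.27 after correction, edgeR adjusted p = 0.00343). With all 6 libraries its log2 fold change was 0.58 (edgeR adjusted p = 0.112). Abca2, a lipid transporter of endosomes, and Npc1, which lets cholesterol out of lysosomes, rose by 0.32 and 0.27 in replicates 2 and 3. Abca2 had 0.30 after correction (edgeR adjusted p = 0.0024), and Npc1 lost the call (0.0037, edgeR adjusted p = 0.979). The 4 called lower were Apoe, Nr1h2, Cyp46a1 and Npc2 (-0.71, -0.62, -0.45 and -0.35), named after their values were seen. After correction Npc2 kept the call (-0.25, edgeR adjusted p = 0.0197), and Apoe, Nr1h2 and Cyp46a1 lost it (-0.08, 0.03 and -0.01). The list summed to 2980 to 3332 CPM in WT and 3264, 2493 and 2205 CPM in Tlr7-/- replicates 1 to 3. Of 22 tested genes of other fatty acid synthesis, elongation and desaturation, 4 were called higher and 4 lower in replicates 2 and 3 and 0 in replicate 1. Elovl6, an elongase of long-chain fatty acids, rose by 0.73 there, while Slc25a1, the mitochondrial citrate carrier, had -0.94 and Hacd1, a dehydratase of the elongation cycle, -0.37. After correction they had 0.40, -0.39 and -0.37, with edgeR adjusted p = 0.00304, 0.00172 and 0.0199.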

How the data were processed

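Messenger RNA of 6 libraries was sequenced on a NextSeq500 after the TruSeq Stranded mRNA kit, per the labels. GRCm38.p6, HISAT2, featureCounts, edgeR and bcl2fastq are named in the submitters' processing notes; their versions and which tool made which table are not given in the sources used here. Per the file headers, the gene table deposited by the authors holds total counts, RPKM and TPM per gene. The authors' second deposited table holds log2 fold changes, mean log2 CPM, p-values and false discovery rates; the test behind them is not stated.

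The counts gave the main results. The filter filterByExpr kept 13947 of 25814 genes and 99.96% of counts. Counts were scaled by TMM and printed as CPM, and groups were compared with edgeR 4.0.16 in R 4.3.3 (glmQLFit with robust=TRUE, two-sided glmQLFTest), with p-values adjusted by Benjamini-Hochberg over the whole tested table and called under 0.05. The fit with 3 groups (WT, Tlr7-/- replicate 1, Tlr7-/- replicates 2 and 3) follows the style of library names in the labels. For edgeR, the SE printed is the absolute log2 fold change divided by the square root of the F statistic of its test. It is not a standard error given by the fit, unlike the SE from DESeq2. TPM served only for levels. GC content and length came from the longest GENCODE M21 transcript (99.9% of genes had one) and were fitted in each library with natural splines (5 degrees of freedom), whose fit entered as an offset. Alternatives were DESeq2 1.42.0, limma 3.58.1 on voom weights or on RPKM, edgeR's exact test, other scalings and filters, a replicate block, naming style as covariate, and leaving out each library. Replicate pairs differed by more than sampling noise. The procedure was tested on simulated data. Figures were drawn with matplotlib 3.10.9.

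The 28 genes, the lists and the split by library name were chosen with earlier results of these data known. Per role, up to 4 genes with the smallest p with all 6 libraries, and Insig1, Srebf1 and Srebf2, have values in every library; values of Hmgcs1, Lss, Msmo1 and Stard4 were added after they were seen. Of each other list, 3 genes with the smallest p are named. A few genes of the list of other sterol synthesis and uptake are not reported here and do not enter its counts.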

Additional observations from a re-analysis of the deposited data

How the results depend on the processing

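The count of 0 of 28 genes called with all 6 libraries stayed 0 with limma-voom, the exact test, other scalings and filters, RPKM with any of the 3 pseudocounts, and the GC content and length correction. Of these settings the exact test called 1028 of all genes and the others 0 to 2. The count was 1 with DESeq2 (1785 of all genes) and 2 with naming style as a covariate (200 of all genes). The latter fit by construction compares Tlr7-/- replicate 1 with WT, and the median log2 fold change of the 28 in it was -0.20. Leaving out a library gave 0 to 15 calls, 15 without Tlr7-/- replicate 1, where 6922 of all genes were called. Calls in replicates 2 and 3 fell from 15 to 8 with the correction and were 8 to 16 on leaving out a library; those in replicate 1 were 4 with DESeq2, 0 with the correction and 0 to 2 on leaving out a WT library; those between replicates 2 and 3 and replicate 1 were 12 with the correction and 14 to 19 under the other alternatives, 15 in the report. Genes without overlap between genotypes numbered 5 with library size alone, against 3.

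Several log2 fold changes with all 6 libraries changed sign. With the correction these became 0.089 (Acat2), -0.053 (Hmgcs1), 0.023 (Pmvk), 0.084 (Mvd), 0.038 (Fdps), 0.040 (Fdft1), -0.060 (Sqle), -0.13 (Lss), -0.084 (Hsd17b7), 0.12 (Dhcr7), 0.18 (Scap), -0.057 (Stard4) and -0.076 (Acaca). With naming style as a covariate they became -0.17 (Hmgcs1), -0.21 (Idi1), -0.28 (Sqle), -0.31 (Lss), -0.32 (Nsdhl), -0.27 (Hsd17b7), -0.13 (Sc5d), -0.081 (Insig1), 0.19 (Srebf1), 0.027 (Srebf2), 0.065 (Scap), -0.33 (Stard4), -0.064 (Acaca) and -0.060 (Scd2). Sqle was -0.011 with limma-voom, -0.00081 without the filter, and -0.065, -0.064 and -0.064 with RPKM at pseudocounts of 0.1, 0.5 and 1, where Lss was -0.0074, -0.0068 and -0.0061. On leaving out a library the ranges were -0.10 to 0.11 (Acat2), -0.23 to 0.11 (Fdps), -0.13 to 0.084 (Fdft1), -0.13 to 0.13 (Sqle), -0.069 to 0.23 (Lss), -0.15 to 0.062 (Msmo1), -0.11 to 0.26 (Nsdhl), -0.047 to 0.25 (Hsd17b7), -0.076 to 0.064 (Dhcr7), -0.10 to 0.012 (Scap) and -0.28 to 0.11 (Scd1). Where no library or correction is named, the cause was not tested.

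Correlations of deviations could not decide whether replicate numbers pair the samples, because the Tlr7-/- libraries differ mainly by the split of replicate 1 from replicates 2 and 3. Same-numbered libraries had 0.241, -0.0839 and 0.264. Tlr7-/- replicates 1 and 3 correlated best with the WT library of the same number, and replicate 2 with WT replicate 3 (0.124). With the replicate block 0 of the 28 were called (median -0.013) and Sqle was -0.010. With the replicate block and the GC correction 0 were called (median 0.016), and the values that changed sign were 0.072 (Acat2), -0.055 (Hmgcs1), 0.026 (Pmvk), 0.060 (Mvd), 0.012 (Fdps), 0.027 (Fdft1), -0.070 (Sqle), -0.14 (Lss), -0.094 (Hsd17b7), 0.11 (Dhcr7), 0.18 (Scap), -0.069 (Stard4) and -0.082 (Acaca). Each of the 28 had 355 counts or more in every library.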
